A study of Mus musculus with 8 samples.

Results

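The 10 genes described here encode the core proteins of planar cell polarity and the Dishevelled proteins, *Celsr1*, *Celsr2*, *Celsr3*, *Vangl1*, *Vangl2*, *Prickle1*, *Prickle2*, *Dvl1*, *Dvl2* and *Dvl3*. They were chosen by gene symbol, and all 10 were among the 15039 genes with values. The prefrontal cortex (PFC) was sequenced in 4 mice overexpressing Rnf146 and in 4 overexpressing eGFP, to see which transcripts differ once Rnf146 is overexpressed. All 8 were wild-type male mice of the strain C57BL/6NCrljOri, aged 6 weeks at injection, and the PFC was dissected 4 weeks after bilateral injection of an adeno-associated virus (AAV). The AAV carried mouse Rnf146 together with eGFP or eGFP alone, so both groups received a virus and expressed eGFP. In the Rnf146 vector the human synapsin promoter drives expression in neurons. The RNA, however, came from whole dissected tissue with all its cell types, including cells that the virus did not reach. By the study's text, the Rnf146 mice were chosen for sequencing after overexpression and social deficits had been seen in them. The deposited expression values are on a log2 scale and had been centred by the authors within each pair of libraries with the same replicate number, so every gene holds 4 independent differences, Rnf146 minus eGFP. Since each pair has the same midpoint, the groups of a gene do not overlap whenever its 4 differences share a sign, and both statements are 1 fact. The differences were tested by limma, blocked on replicate number, and a gene was called where the Benjamini-Hochberg adjusted p over all 15039 genes was at most 0.1. Errors are the SD over the 4 pairs, which may hold technical as well as biological spread.

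Planar cell polarity is the coordinated orientation of cells within a tissue. Celsr proteins, large atypical cadherins that are also adhesion G protein-coupled receptors, bind each other across cell borders, and inside the cell Vangl and Prickle gather on the side opposite to Frizzled and Dishevelled. In the forebrain these proteins are known for axon tract formation, neuronal migration and the orientation of the cilia of ependymal cells. Dishevelled proteins act in this pathway and in Wnt/β-catenin signaling, where they recruit Axin to the receptors, and RNF146 is the ubiquitin ligase that marks poly(ADP-ribosyl)ated Axin for degradation.

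The check of the overexpressed gene came first. *Rnf146* lay between 10.35 and 10.50 in the eGFP libraries and between 13.01 and 13.17 in the Rnf146 libraries, with pair differences of 2.82, 2.51, 2.66 and 2.58 and an adjusted p of 3.18e-07 by limma with the block. The symbol sums viral and endogenous transcripts, and 3543 of its 8281 exonic bases overlap *Echdc1* on the opposite strand, whose log2 fold change was 0.02.

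Marker lists of brain regions and cell types were read for the tissue as a whole. Of all genes, 1.25% were called and 49.5% had a mean difference below 0, and the counts below stand beside these shares. All 10 markers of cortical excitatory neurons were measured, at a mean level of 11.82 to 11.94 in eGFP and 11.67 to 11.79 in Rnf146 libraries, and their pair means were -0.18, -0.27, -0.03 and -0.16, with 8 of the 10 below 0 and 2 called. The pairs were unlike in markers of neighbouring tissue. The striatum list (10 of 10 genes measured, all 10 with a mean above 0 and 1 called) had -0.07, 1.27, 0.70 and 0.32, and the list of septum and basal forebrain (6 of 10 measured, 6 above 0 and 5 called) had 0.62, 0.70, 0.27 and 0.49. The oligodendrocyte list (8 of 8 measured, 8 above 0 and 0 called) had -0.15, 0.48, 0.94 and 0.54, with mean levels of 12.02 to 12.56 in eGFP and 12.42 to 12.96 in Rnf146 libraries. The interneuron list (10 of 10, 5 above 0 and 4 called) was at 0.14 ± 0.057 (SD, n = 4), the astrocyte list (8 of 8) at -0.03 ± 0.061, the microglia list (7 of 7, 7 below 0 and 0 called) at -0.16 ± 0.086, the endothelial and mural list (7 of 7) at 0.0083 ± 0.04, and the list of ependyma and choroid plexus (4 of 8, 3 above 0 and 2 called) at 0.18 ± 0.041. *Lhx8*, *Chat*, *Slc18a3* and *Gbx1* of the septum list and *Ccdc153*, *Tmem212*, *Ttr* and *Folr1* of the ependyma and choroid plexus list were not analysed here.

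None of the 10 polarity and Dishevelled genes was called by limma with the replicate block, against 1.25% of all genes (0.818% higher and 0.432% lower in Rnf146 mice). Their adjusted p-values ran from 0.156 for *Celsr3* to 0.943 for *Vangl1*. At an unadjusted p under 0.05, 4 of the 10 passed (*Celsr1*, *Celsr2*, *Celsr3* and *Dvl1*), against 12.4% of all genes. Mean differences were below 0 in 8 of the 10, against 49.5% of all genes, and the 2 above 0 were *Celsr1* and *Vangl2*. The median of the 10 log2 fold changes was -0.08 beside 0.00086 for all genes, and the median of the 10 genes within a pair was -0.16, -0.045, -0.029 and -0.057 in pairs 1 to 4. All 4 pairs had the same direction in 5 of the 10 genes, *Celsr1* above 0 and *Celsr2*, *Celsr3*, *Dvl1* and *Dvl2* below 0, against 20.6% of all genes. The share of all genes above 0 in every pair was 10.4%, and the share below 0 in every pair 10.2%. In 6 of the 10 the mean difference was larger in size than the SD of the 4 pairs, against 22.9% of all genes. The median SD of the 10 genes was 0.14, beside 0.098 for all genes. This did not hold for each family, since the median SD of the Dvl genes was 0.07. When the 8 libraries were taken as independent, without the replicate block, 5 of the 10 were called, against 21.5% of all genes. These were *Celsr1* on the higher side and *Celsr2*, *Celsr3*, *Dvl1* and *Prickle2* on the lower side, where 10.4% of all genes were called. Because the values are centred within pairs, that fit counts 6 residual degrees of freedom where the values hold 3. The counts by unadjusted p, by shared direction, by size beside the SD and without the block all read the same 4 differences per gene. They are not separate results, and *Celsr1*, *Celsr2*, *Celsr3* and *Dvl1* are in each of them. In tissue RNA, fewer cells of a type and less RNA per cell cannot be told apart, and this holds for every difference given here.

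**Figure D1:**
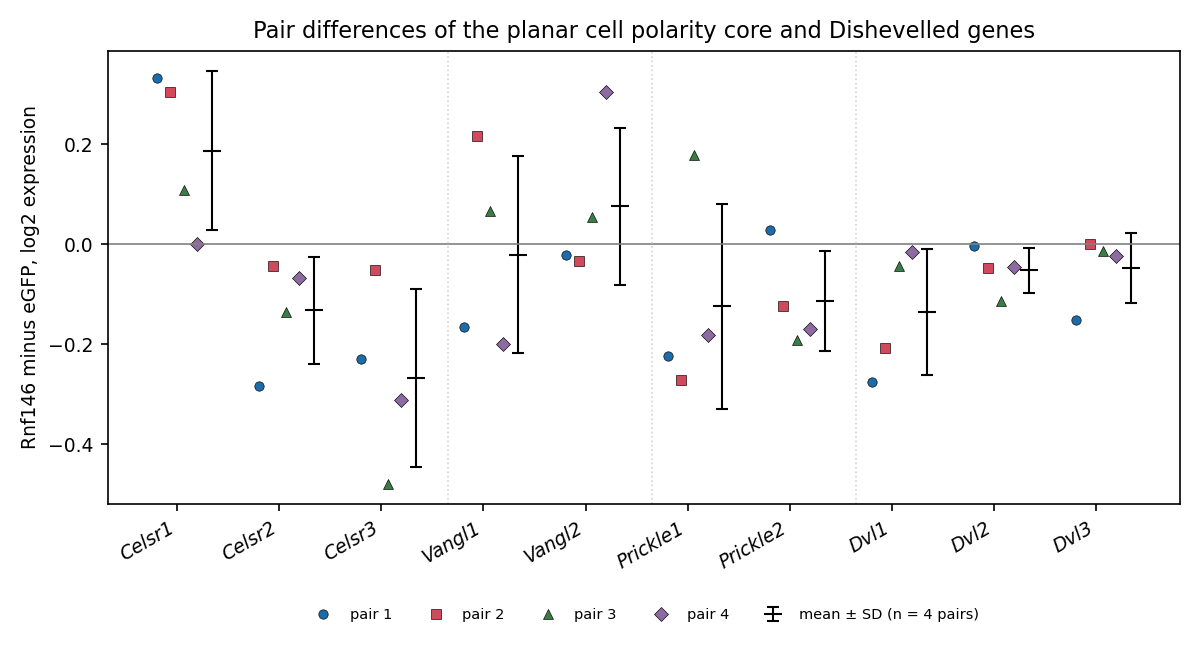
Pair differences of the 10 genes, Rnf146 minus eGFP on the log2 expression scale, with 1 symbol per pair and the mean ± SD of the 4 pairs as a black bar beside them. *Celsr1* lies above 0 in every pair and *Celsr2*, *Celsr3*, *Dvl1* and *Dvl2* below 0, while the *Vangl* and *Prickle* genes have pairs on both sides.

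The 3 Celsr genes held the lowest p-values of the 10 and did not share a direction. *Celsr1* is best known from epithelia and neural progenitors, *Celsr2* from neurons and ependymal cells, and *Celsr3* from postmitotic neurons, where it is needed for the main axon tracts of the forebrain. *Celsr3* and *Celsr2* had negative mean differences and *Celsr1* a positive one.

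*Celsr3* lies on chromosome 9 of GRCm39, 108703519 to 108730168 on the plus strand (GENCODE vM39). Its values were 12.64, 12.55, 12.76 and 12.68 in eGFP libraries 1 to 4 and 12.41, 12.50, 12.28 and 12.36 in Rnf146 libraries 1 to 4. Every Rnf146 library was below every eGFP library, and the pair 2 libraries were nearest to each other. The pair differences were -0.23, -0.05, -0.48 and -0.31, and their mean was -0.27 ± 0.18 on the log2 scale (SD, n = 4), with a 95% interval of -0.42 to -0.11 and an adjusted p of 0.156 from limma with the replicate block. This was the largest mean difference of the 10 genes in size, and it ranked 359 among all genes by p. The smallest mean difference among the 188 genes called was 0.20 in size, below that of *Celsr3*, whose SD exceeded that of 86.5% of all genes. Without the replicate block its adjusted p was 0.017. With 1 pair left out at a time, the log2 fold change ran from -0.34 without pair 2 to -0.20 without pair 3, with adjusted p-values between 0.161 and 0.456 from limma.

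*Celsr2* (chromosome 3, 108298165 to 108323397, minus strand) had pair differences of -0.28, -0.044, -0.14 and -0.067. Its eGFP libraries lay between 13.18 and 13.30 and its Rnf146 libraries between 13.02 and 13.14, without overlap. Its mean log2 fold change was -0.13 ± 0.11 (SD, n = 4), with a 95% interval of -0.25 to -0.011 and an adjusted p of 0.357. Pair 1 carried the largest share of it, and without pair 1 the mean was -0.08.

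*Celsr1* (chromosome 15, 85783126 to 85918438, minus strand) had differences above 0. Its eGFP values were 9.26, 9.28, 9.38 and 9.43 and its Rnf146 values 9.60, 9.58, 9.49 and 9.43 in libraries 1 to 4. The 2 libraries of pair 4 were nearly equal, with a difference of 0.0013, whereas pairs 1 and 2 differed by 0.33 and 0.30 and pair 3 by 0.11. Its mean log2 fold change was 0.19 ± 0.16 (SD, n = 4), with a 95% interval of 0.038 to 0.34 and an adjusted p of 0.290. *Celsr1* lies lower on the deposited scale than the other 2 genes, at a mean of 9.43 beside 13.16 and 12.52, where a log scale of this kind may compress changes.

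**Figure D2:**
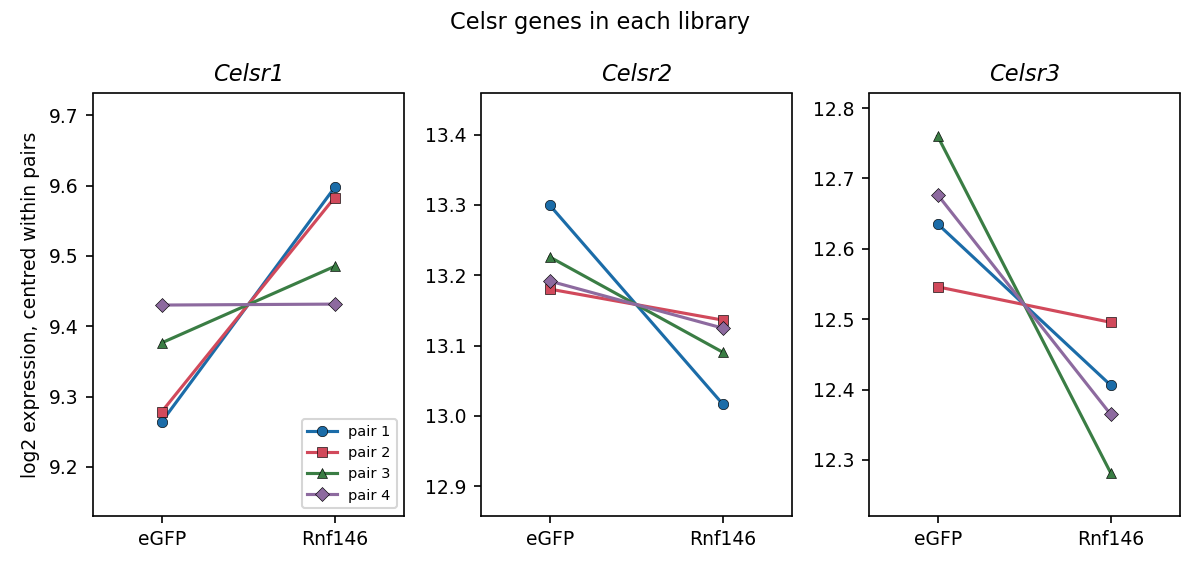
Log2 expression of *Celsr1*, *Celsr2* and *Celsr3* in each library, with a line joining the 2 libraries of a pair and axes of equal span. The lines cross at 1 height per gene because the values are centred within pairs, and *Celsr1* runs upward where *Celsr2* and *Celsr3* run downward.

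The difference between paralogs was examined as the difference of their pair differences, in 8 comparisons within the families. *Celsr3* minus *Celsr1* took values of -0.56, -0.35, -0.59 and -0.31 and averaged -0.45 ± 0.14 (SD, n = 4), and *Celsr2* minus *Celsr1* was -0.32 ± 0.23 and below 0 in all 4 pairs. The exact sign-flip permutation test gave both a two-sided p of 0.125, the smallest that 4 pairs allow, and an adjusted p of 0.5 over the 8 comparisons. *Celsr3* minus *Celsr2* was -0.14 ± 0.19, below 0 in 3 of 4 pairs (exact sign-flip permutation test, two-sided p = 0.375, adjusted p = 0.75). The 5 comparisons within the Vangl, Prickle and Dvl families had means between 0.0053 and 0.097, each smaller than its SD, and two-sided p-values of 0.25 to 1 by the same exact permutation test. The reads of these paralogs are hardly interchangeable. Of the 31-base stretches in the annotated transcripts of *Celsr1*, *Celsr2* and *Celsr3*, 2, 0 and 38 occurred in transcripts of any other gene, out of 11751, 12213 and 12147. The genes with the largest such shares were *Vangl1* (3.08%), *Dvl2* (1.78%) and *Dvl3* (1.68%).

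The Dvl genes encode the cytoplasmic scaffold proteins that relay signals from Frizzled receptors to both branches of Wnt signaling. All 3 had mean differences below 0, and none was called. *Dvl1* (chromosome 4, 155931797 to 155949171, plus strand) had values of 11.62, 11.58, 11.50 and 11.49 in eGFP libraries 1 to 4 and 11.34, 11.38, 11.46 and 11.47 in Rnf146 libraries 1 to 4. Its pair differences of -0.27, -0.21, -0.044 and -0.015 were all below 0, and pairs 1 and 2 were far larger in size than pairs 3 and 4. Its mean log2 fold change was -0.13 ± 0.13 (SD, n = 4), with a 95% interval of -0.26 to -0.0071 and an adjusted p of 0.376 from limma with the block. Without pair 1 it was -0.09.

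*Dvl2* (chromosome 11, 69891371 to 69903127, plus strand) had small differences of -0.0027, -0.047, -0.11 and -0.046. Its mean of -0.05 ± 0.045 (SD, n = 4) had a 95% interval of -0.16 to 0.053 and an adjusted p of 0.709. Only 9.46% of all genes had an SD as low or lower. *Dvl3* (chromosome 16, 20335636 to 20352768, plus strand) was nearly level in pairs 2 to 4, with differences of 0.0014, -0.014 and -0.024, and stood at -0.15 in pair 1. Its mean was -0.05 ± 0.07, with a 95% interval of -0.15 to 0.061 and an adjusted p of 0.747. Both intervals hold 0 and reach to -0.16 and -0.15 on this scale. The most negative pair was pair 3 for *Dvl2* and pair 1 for *Dvl1* and *Dvl3*.

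Exons of all 3 Dvl genes overlap genes on the opposite strand in GENCODE vM39. *Dvl2* shares 1504 of its 6664 exonic bases with *Acadvl*, a mitochondrial fatty acid oxidation enzyme, whose log2 fold change was -0.12 ± 0.042 (SD, n = 4) with an adjusted p of 0.321. *Dvl1* shares 3495 of its 10761 exonic bases with the taste receptor gene *Tas1r3*, and *Dvl3* 128 of its 10089 with *Gm16618*, and neither of these was analysed here. The libraries were made with a kit that keeps the strand, and the strand setting of the quantification is not given in the sources used here.

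The sequences upstream of *Celsr3* and *Dvl1* are shown because these were the genes with the lowest p of the Celsr and Dvl families. Promoter windows came from RefSeq (GRCm38.p6), which gave 12 windows for 8 of the 10 genes, and were placed on GRCm39 by exact match. No window was found for *Celsr1* and *Vangl1*. The 250 bases before the RefSeq start of *Celsr3* are chr9:108702994-108703243 of GRCm39, plus strand, within annotated exons of the gene *Gm35025*. In GENCODE vM39 *Celsr3* starts further downstream, at 108703519, so this window does not adjoin that start. For *Dvl1* the 188 bases before the first annotated exon are chr4:155931609-155931796, plus strand. Capitals mark the E-box CAGGTG or its reverse complement CACCTG, a sequence bound by E-proteins such as TCF4.
Celsr3: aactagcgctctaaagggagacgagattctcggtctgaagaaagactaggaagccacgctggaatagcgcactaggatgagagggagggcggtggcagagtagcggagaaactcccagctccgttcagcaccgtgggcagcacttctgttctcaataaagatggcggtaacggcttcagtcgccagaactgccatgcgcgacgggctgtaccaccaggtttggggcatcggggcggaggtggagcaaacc
Dvl1: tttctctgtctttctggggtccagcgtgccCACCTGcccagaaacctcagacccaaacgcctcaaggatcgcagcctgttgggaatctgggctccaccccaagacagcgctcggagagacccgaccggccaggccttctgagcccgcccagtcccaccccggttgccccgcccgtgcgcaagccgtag

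Neither stretch held CTTTGA or TCAAAG, the core bound by TCF/LEF factors. Over the 250 bases before the start, CTTTGA on either strand was found in 1 of the 12 windows, a *Prickle2* window, and in 13.8% of all 32851 windows of the same length. The E-box was found in 4 of the 12 windows, 1 each of *Celsr2*, *Dvl1*, *Prickle1* and *Vangl2*, and in 17.2% of all windows. By GENCODE vM39, these windows of *Celsr2*, *Prickle1* and *Vangl2* lie wholly within annotated exons of the same gene. The full 250-base windows of *Celsr2* and *Dvl1* had G or C at 75.2% and 71.2% of their bases, that of *Celsr3* at 58.0%, and the median of all windows was 52.4%. The *Dvl1* window includes 62 bases of its own exon, and the 188 bases shown above had 66%. These matches describe letters in the windows and no binding was measured.

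Vangl proteins are membrane proteins that hold Prickle at the cell border, and Vangl2 is also found at excitatory synapses. Both genes had 2 pairs above 0 and 2 below. *Vangl2* (chromosome 1, 171828527 to 171856011, minus strand) had differences of -0.022, -0.034, 0.055 and 0.30, so that its mean of 0.08 ± 0.16 (SD, n = 4) rested on pair 4, and without that pair it was -0.00039. The 95% interval ran from -0.072 to 0.22 and the adjusted p was 0.698. *Vangl1* (chromosome 3, 102060899 to 102112057, minus strand) had differences of -0.17, 0.22, 0.066 and -0.20, a mean of -0.02 ± 0.20 and an adjusted p of 0.943. Its sign turned without pair 1 (0.03) and without pair 4 (0.04). At a mean value of 8.79 *Vangl1* was the lowest of the 10 genes on the deposited scale, and 19.5% of all genes lay below it.

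Prickle proteins are cytoplasmic LIM domain proteins that bind Vangl and Dishevelled. *Prickle2* (chromosome 6, 92347873 to 92683215, minus strand) had values of 12.48, 12.56, 12.59 and 12.58 in eGFP libraries 1 to 4 and 12.51, 12.43, 12.40 and 12.41 in Rnf146 libraries 1 to 4. Pairs 2 to 4 were alike, at -0.12, -0.19 and -0.17, and pair 1 was slightly above 0 at 0.030, so that the groups overlap. Its mean log2 fold change was -0.11 ± 0.10 (SD, n = 4), with a 95% interval of -0.23 to 0.0031 and an adjusted p of 0.416. *Prickle1* (chromosome 15, 93394582 to 93494477, minus strand) had differences of -0.22, -0.27, 0.18 and -0.18. Pair 3 stood apart in sign, and the mean of -0.12 ± 0.21 became -0.23 without it, with an adjusted p of 0.150 in place of 0.537. The pairs in which the 2 Prickle genes departed from their own mean were different ones, pair 1 for *Prickle2* and pair 3 for *Prickle1*.

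The rest of the pathway was read from a list of 46 genes, of which 42 had values and *Ror1*, *Ror2*, *Wnt11* and *Prickle4* were not analysed here. None of the 42 was called by limma with the replicate block, beside 1.25% of all genes, and 9 had an unadjusted p under 0.05, beside 12.4% of all genes. Mean differences were above 0 in 26 and below 0 in 16, with a median of 0.01 and a range of -0.20 to 0.21. All 4 pairs had the same direction in 11 of the 42, 6 above and 5 below 0, beside 20.6% of all genes. Dropping the block gave 11 calls among the 42, beside 21.5% of all genes.

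The receptors lay near 0. *Fzd3*, the Frizzled receptor that works with Celsr3 in axon guidance, was at 0.07 ± 0.11 (SD, n = 4) on the log2 scale, and *Fzd6* at 0.07 ± 0.12. The ligands *Wnt5a* and *Wnt5b* were at 0.0038 and 0.01, and none of the 12 effectors was below -0.04. Among the effectors the Jun kinase gene *Mapk9* stood highest, with differences of 0.17, 0.05, 0.33 and 0.11, a mean of 0.16 ± 0.12 and an adjusted p of 0.269.

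Among the 15 partners and regulators of Dishevelled, 7 had an unadjusted p under 0.05 by limma, beside 12.4% of all genes, and none was called. These 7 lay on both sides of 0. Each other role in the list had 0 or 1 such gene, so this role was singled out after its values were seen. *Smurf1* and *Smurf2*, ubiquitin ligases that act on Prickle downstream of Dishevelled, had opposite signs. *Smurf2* was at 0.19 ± 0.12 (SD, n = 4), above 0 in all 4 pairs, with an adjusted p of 0.221, and *Smurf1* at -0.12 ± 0.06, below 0 in all 4 pairs, with an adjusted p of 0.321. *Nxn*, which encodes the Dishevelled-binding redox protein nucleoredoxin, was at 0.18 ± 0.10, above 0 in all 4 pairs, with an adjusted p of 0.226.

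The 3 Dact genes encode Dishevelled-binding proteins of the Dapper family, and all 3 had negative means. *Dact3* had differences of -0.33, -0.38, -0.0071 and -0.074, with a mean of -0.20 ± 0.19 (SD, n = 4) and an adjusted p of 0.292. *Dact2* was at -0.15 ± 0.10 and below 0 in all 4 pairs, with an adjusted p of 0.285. *Dact1* was at -0.12 ± 0.15 and below 0 in 3 of 4 pairs. *Dact3* and *Dvl1* were both largest in size in pairs 1 and 2 and near 0 in pairs 3 and 4.

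In the Fat and Dachsous system, a second set of giant cadherins that orients tissues, *Dchs2* had the highest mean difference of the list, 0.21 ± 0.20 (SD, n = 4, adjusted p = 0.297 from limma). Pair 2 stood at 0.50, far from the range of 0.09 to 0.13 that the other pairs spanned. Without pair 2 the mean of *Dchs2* was 0.11, below those of *Mapk9* (0.20), *Smurf2* (0.16) and *Nxn* (0.15) without that pair.

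**Figure D3:**
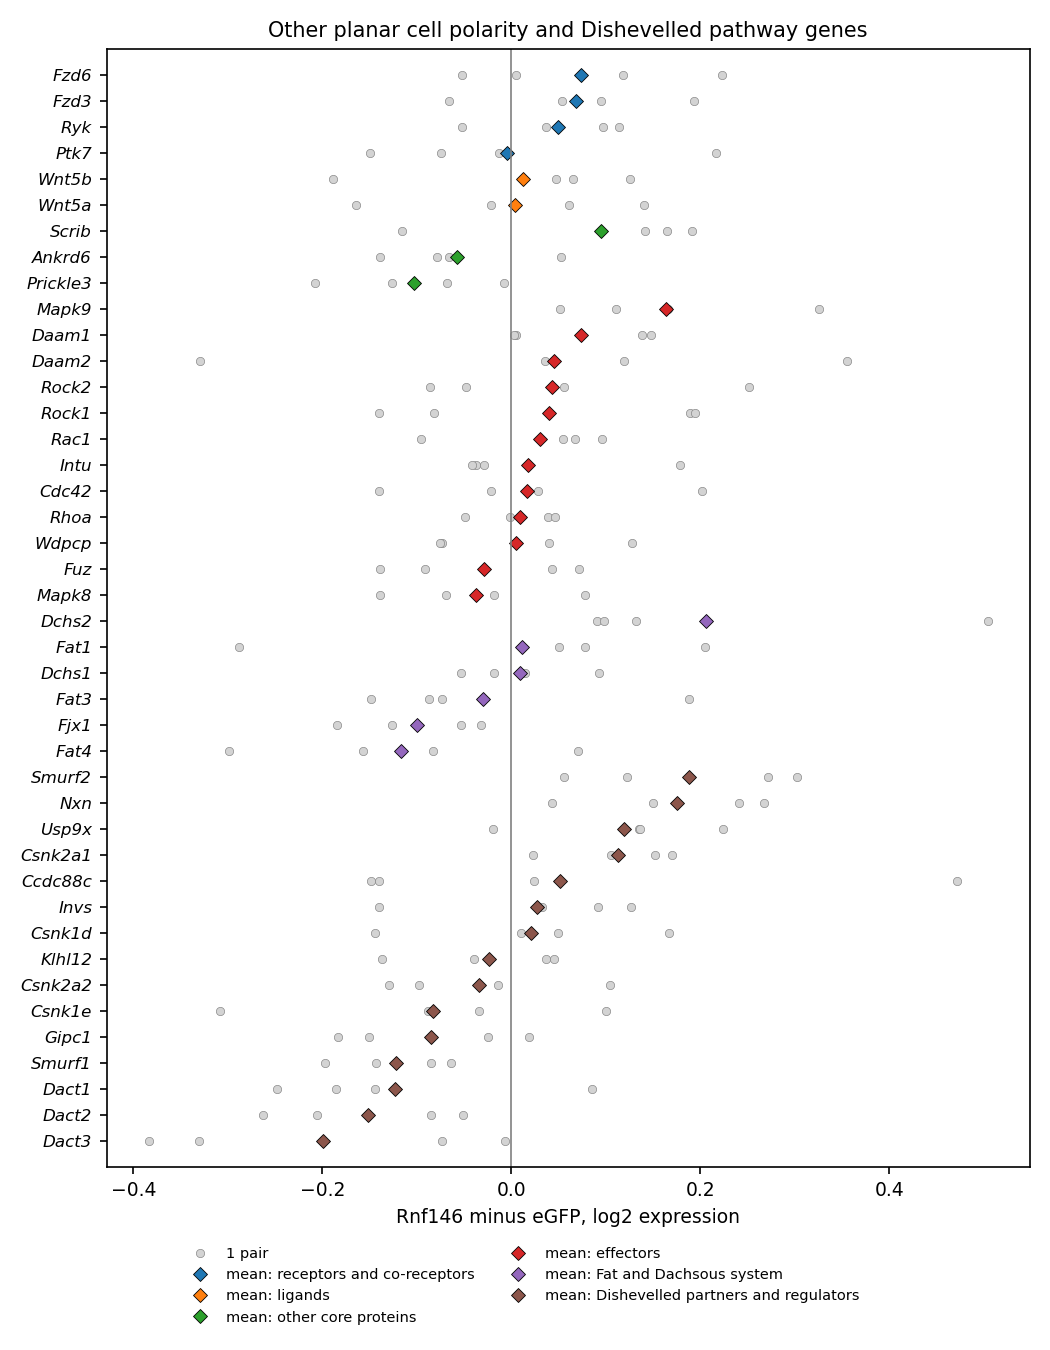
Log2 differences, Rnf146 minus eGFP, of the 42 other pathway genes, with the 4 pairs as grey circles and their mean as a diamond coloured by role. Means lie between -0.20 and 0.21, with the Dact genes at the lower end and *Dchs2*, *Smurf2* and *Nxn* at the upper end.

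*Celsr3* was most negative in pair 3, where the oligodendrocyte list was highest, and *Celsr2* and *Dvl1* were most negative in pair 1, where that list was below 0. None of these genes ordered the pairs as the list did, in either direction. *Celsr3* was at -0.23 in pair 1 and -0.05 in pair 2, where the list was at -0.15 and 0.48. With the oligodendrocyte score as a covariate beside the block, a setting chosen after seeing the data, the log2 fold change was -0.17 for *Celsr3*, -0.20 for *Celsr2*, 0.29 for *Celsr1* and -0.24 for *Dvl1*. With the score of striatum and septum it was -0.41, -0.25, 0.14 and -0.13 in the same order, and with that of cortical excitatory neurons -0.55, -0.17, 0.05 and -0.013. The adjusted p of *Celsr3* in these limma fits was 0.479, 0.883 and 0.932. Such fits estimate the difference at equal scores. The excitatory neuron score was lower in Rnf146 in every pair, by -0.03 to -0.27, so that estimate lies outside the observed pairs. The combined score of striatum and septum, a mean over the genes of both lists, was higher in Rnf146 in every pair. The estimate with that score therefore lies outside the observed pairs as well. None of the 10 genes was called with any of these covariates, and none had been called without them. With the score of striatum and septum, or that of excitatory neurons, only 1 of all 15039 genes was called, *Rnf146* itself. A lack of calls among the 10 in those fits therefore says nothing particular to them. With the oligodendrocyte score, 132 of all genes were called higher and 124 lower. Beyond these fits the part of other cell types in the differences was not tested.

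**Figure D4:**
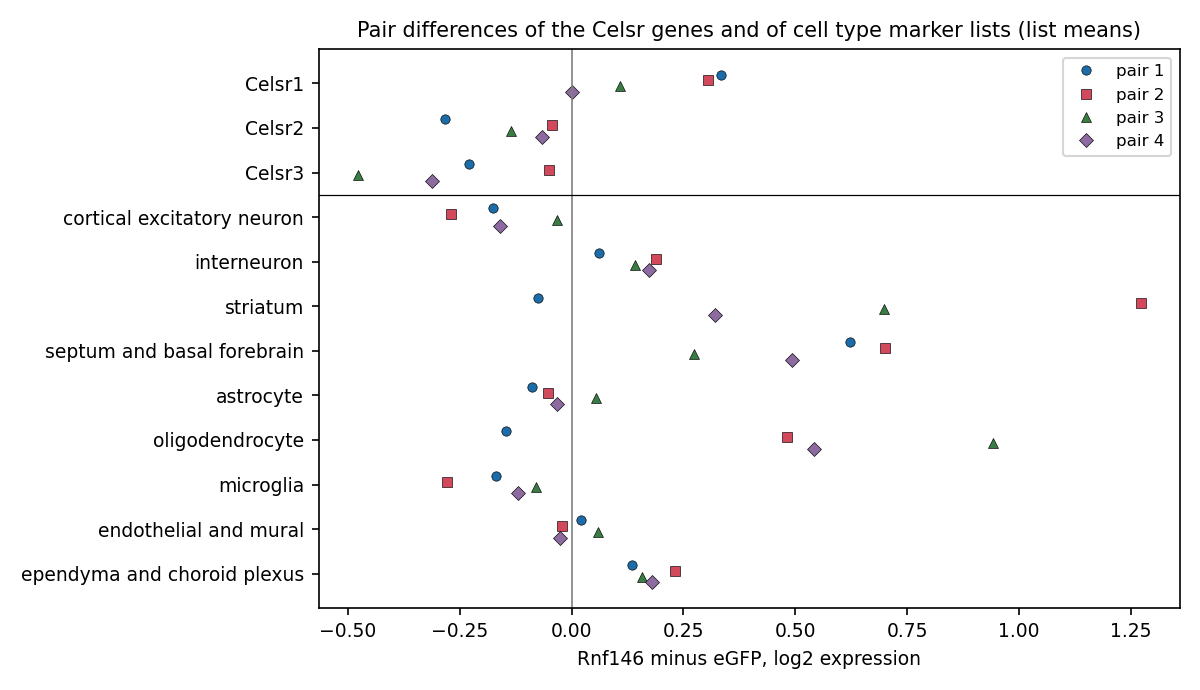
Pair differences, Rnf146 minus eGFP on the log2 expression scale, of the 3 Celsr genes above the line and of 9 marker lists below it, each list as the mean of its genes, with 1 symbol per pair. The striatum and oligodendrocyte lists spread over a wider range between pairs than the Celsr genes, and pair 1 lies below 0 in both lists.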

How the data were processed

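Bulk RNA of the PFC was sequenced in 8 mice, 4 per group, and the sample labels gave each library its group and replicate number. The authors removed 15 bases of each read with Cutadapt, discarded reads shorter than 100 bases, and quantified transcripts with Salmon 1.9.0 against GENCODE vM30 (GRCm39). The submitters' processing notes also name DESeq2. The deposited log2 values run from 7.86 to 18.8 over 15039 genes. The transformation is not given in the sources used here, and it may compress the changes of weakly expressed genes. Within each gene the sum of both libraries is equal across the 4 pairs (largest spread 1.42e-13), so the deposited values had been centred within pairs. This centring fixes the pairing by replicate number and leaves 3 residual degrees of freedom. No counts were used, so the depth of each library, and the precision it gives, is unknown. What else same-numbered mice had in common (litter, cage, batch) is not given in the sources used here.

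All genes were fitted in R 4.3.3 using limma 3.58.1 (trended eBayes), blocked on replicate number, with Benjamini-Hochberg adjustment. Intervals are limma's 95% intervals. The fit was also run on simulated data with shifts larger than any mean difference of the 10 genes. That run does not speak to differences of their size, and its outcome is not given here. Paralogs were compared with an exact two-sided sign-flip test of 4 pairs, with 16 sign combinations. Genes named were the 10 members, *Rnf146*, and of the pathway list the genes called and the 4 highest and 4 lowest. *Fzd3*, *Fzd6*, *Wnt5a*, *Wnt5b*, *Acadvl*, *Echdc1*, *Tas1r3*, *Gm16618* and *Gm35025* were added after their values were seen. The members and lists were chosen with earlier results of these data known. Transcript length and GC content came from the longest GENCODE vM39 transcript and were found for 97.0% of genes. Python 3.11.15 with pandas 2.3.3 was used for the rest. The alternatives were no replicate block, each pair left out, quantile normalization, median centring, a filter on low values, untrended and robust variances, pair weights, 3 marker scores as covariates, a correction for GC content and length, and an adjusted p of 0.05.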

Additional observations from a re-analysis of the deposited data

Results flagged for a closer look

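Of 28 genes and marker lists checked over their 4 pair differences, 2 had 1 pair far from the other 3, where chance alone flags about 5% of such groups. *Dvl3* had a difference of -0.15 in pair 1 and between -0.024 and 0.0014 in the other 3 pairs. *Dchs2* had 0.50 in pair 2 and between 0.09 and 0.13 in the other 3 pairs.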

How the results depend on the processing

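Across 16 alternatives to the fit, 0 of the 10 genes were called, except 5 without the replicate block. Of the 42 pathway genes 0 were called, except 11 without the block. Several of these counts could hardly differ from 0. The adjusted p of 0.05 cannot add calls to the main fit. Without pair 4, 0 of all genes were called lower, and without pair 2 only 3 were. The fits with the striatum and septum or excitatory neuron score called only *Rnf146*. The filter on low values kept 9 of the 10 and 39 of the 42 genes. All fits used limma. The replicate block follows from the centring of the values within pairs. Over all genes the block left 188 calls, against 3226 in its absence. This count was 355 with pair weights, 80 at an adjusted p of 0.05, and 1 with the score of striatum and septum or that of cortical excitatory neurons as a covariate. With the oligodendrocyte score, added after seeing the data, 132 genes were higher and 124 lower, beside 123 and 65 of the 188. With 1 pair left out the count ran from 14 without pair 4 to 421 without pair 1, and was 42 without pair 2. The median of the 10 polarity and Dishevelled genes lay between -0.11 and -0.06. With 1 pair left out, the log2 fold change of *Vangl1* ran from -0.10 to 0.039 and was 0.03 without pair 1 and 0.039 without pair 4, and that of *Vangl2* ran from -0.00039 without pair 4 to 0.11. The sign also turned for *Prickle1* with the excitatory neuron score (0.19). In the pathway list it turned for *Dchs2* (-0.063) and *Dact1* (0.044) with the striatum and septum score, and *Dchs2* (-0.043) and *Dact3* (0.063) with the excitatory neuron score. The cause was not tested. The 3 Celsr genes and the 3 Dvl genes kept their signs in all alternatives, but many of these could not turn a sign. Dropping the block, changing the variance settings, the filter on low values and the adjusted p of 0.05 leave each log2 fold change unchanged. Leaving 1 pair out cannot turn a gene whose 4 differences share a sign, which holds for all of these genes except *Dvl3*. With the correction for GC content and length the log2 fold change was -0.23 for *Celsr3*, -0.09 for *Celsr2*, 0.23 for *Celsr1*, -0.10 for *Dvl1*, -0.02 for *Dvl2* and -0.02 for *Dvl3*. The depth of the libraries is unknown, and possible compression of low values limits what can be read for *Vangl1*, *Celsr1* and *Vangl2*, which have the lowest values of the 10.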
